A study of Mus musculus with 96 samples.

Results

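Collagens are the main structural proteins of the extracellular matrix, and the mouse embryonic stem cell (ESC) libraries described here were read for every gene that encodes a collagen chain. A gene was included if it was annotated as protein-coding and its symbol had the form Col, a type number, a and a chain number. The rule found 43 of the 22337 protein-coding genes, and of the 37620 genes of every kind, in the count tables, and these 43 genes cover 26 collagen types. Genes with another form of name were left out, among them Emid2, a collagen gene named outside this scheme, and Col4a3bp, which encodes no collagen.

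RNA-seq was carried out on 26 samples in 13 groups of 2, and the libraries held between 14512857 and 81049618 counts on genes. The cells were mouse ESCs kept in serum and LIF, and the study asked how RYBP, a subunit of variant Polycomb repressive complex 1, and its partners act on transcription in these cells. In the R7.15 line, whose Rybp alleles are floxed (RYBPfl/fl, with a tamoxifen-activated Cre, Rosa26::CreERT2), untreated Rybp+/+ cells were compared with Rybp-/- cells made with 5 µM 4-hydroxytamoxifen (4-OHT) over 4 days, so that the agent and the deletion came together. Further R7.15 cells, all carrying the floxed alleles and Rosa26::CreERT2 and labelled 4-OHT, expressed either WT RYBP (the WT.RYBP group) or RYBP with the RYBP.21aa deletion, labelled RYBP phase disruption. In the R1 line, cells with an empty vector (shEV) were compared with shRybp and with shWdr5 cells, WDR5 being a subunit of the H3K4 methyltransferase complexes, and WT ESC was compared with a line labelled TF-AA mutation. In J1 cells with a Tet on.RYBP transgene, vehicle was compared with doxycycline (DOX). In the rTRS line, which carries a DOX-induced Rybp_Stat3 integration, untreated cells (NTC) were compared with DOX. In that table the column taken as DOX replicate 2 carries a prefix other than rTRS and was assigned because it is the table's one remaining DOX column, so each value of that library rests on this reading. The control columns of 3 other tables, headed WT or NTC, were taken as WT ESC, WT.RYBP and Tet.RYBP vehicle from the experiment their table is named for. Promoter peaks came from ChIP-seq lists of H3K4me3, H3K27ac, WDR5 and STAT3 in Rybp+/+ and Rybp-/- R7.15 cells, of RING1B in R1 cells with shEV or with shStat3, a knockdown of Stat3 (1 library each), and of RING1B and STAT3 in R1 cells with the DOX-induced Rybp_Stat3 integration, kept without DOX (DOX-) or with it (DOX+). The 2 RNA-seq samples of a group are labelled only as replicates, nothing says that they came from separate cultures, and the p-values then measure only the spread between these samples.

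A collagen molecule is a triple helix of 3 alpha chains, each chain the product of one gene, so that a given type needs its partner chains to be made together. Fibrillar collagens (types I, II, III, V, XI, XXIV and XXVII) form the banded fibrils of connective tissue, the FACIT collagens decorate those fibrils, type IV forms the sheet-like network of basement membranes, type VI forms beaded filaments, types VIII and X form short-chain networks, types XIII, XVII, XXIII and XXV span the cell membrane, and the multiplexins XV and XVIII sit at basement membranes. In the early mouse embryo the first collagen-rich matrix is a basement membrane with type IV collagen and laminin, laid down where primitive endoderm and epiblast meet, whereas fibril-forming collagens are typical products of fibroblasts and other mesenchymal cells. In ESCs many developmental genes carry Polycomb complexes together with H3K4me3, the promoter mark laid down by WDR5-containing complexes, and H3K27ac marks active promoters and enhancers. The classes held 11 fibrillar, 9 FACIT, 6 basement membrane network, 6 beaded filament, 4 transmembrane, 3 short-chain and 2 multiplexin genes, and the remaining 2 were Col7a1, the anchoring fibril collagen, and Col28a1.

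The manipulated genes were read first. Values per library are CPM, that is counts scaled to the library's size after TMM normalisation within each table. Rybp stood at 110 and 110 CPM in Rybp+/+ and at 24.8 and 25.0 CPM in Rybp-/-, at 85.7 and 86.4 CPM in shEV and at 35.8 and 36.6 CPM in shRybp, and Wdr5 at 350 and 343 CPM in shEV and at 60.0 and 58.2 CPM in shWdr5. Rybp rose in Tet.RYBP cells from 135 and 145 to 522 and 535 CPM with DOX, and was 749 and 753 CPM in WT.RYBP and 662 and 626 CPM in RYBP phase disruption. In the libraries labelled rTRS DOX, Rybp stood at 102 and 99.8 CPM, not above the 113 and 110 CPM of NTC (adjusted p = 0.0762), and Stat3 at 191 and 188 CPM against 159 and 172 CPM in NTC, a log2 difference of 0.20. Counts cannot separate endogenous from transgene transcripts that share their sequence, so the libraries are called here by their labels only. Of 10 ESC marker genes, every one stood at 1 CPM or more in both groups of each comparison. In the libraries labelled rTRS DOX their summed level was 4166 and 3911 CPM against 6814 and 6488 CPM in NTC. There 8 of the 10 were lower, where 20.4% of all genes were. In shWdr5 the sum was 7069 and 7147 CPM against 8452 and 8734 CPM in shEV, with 2 higher and 7 lower (31.5% of all genes each way). In shRybp it was 7934 and 7890 CPM against 8986 and 9280 CPM, with 5 higher and 4 lower (26.8% and 26%). Rybp-/- had 5 higher and 4 lower (22.8% and 22.7%), with 6400 and 6412 CPM against 6124 and 6244 CPM. The part of these markers in the collagen differences was not tested.

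Collagen mRNA in these ESCs was dominated by one gene. Col18a1, which encodes the collagen whose end fragment is endostatin, had the highest level per length of the 43 genes in each of the 14 groups read from the 7 tables, shEV being present in 2 of them, from 27.2 RPKM in RYBP phase disruption to 160 RPKM in shRybp. It made up 56.2% of the summed collagen CPM in Rybp+/+, 78.2% in shEV, 87.0% in WT ESC and 19.2% in WT.RYBP. Next in level per length came Col4a1 in shEV (5.61 RPKM), WT ESC (3.12 RPKM), Tet.RYBP vehicle (3.89 RPKM) and rTRS NTC (7.86 RPKM), Col9a2 in Rybp+/+ (3.38 RPKM) and Col1a1 in WT.RYBP (21.4 RPKM). In Rybp+/+ only 11 of the 43 genes reached 1 RPKM, and in WT ESC 4. The order below Col18a1 thus differed between these groups, of which WT.RYBP was itself manipulated, and each test below was made within its own count table. Levels from different tables that are given side by side are a description only, because each table was normalised on its own.

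**Figure D1:**
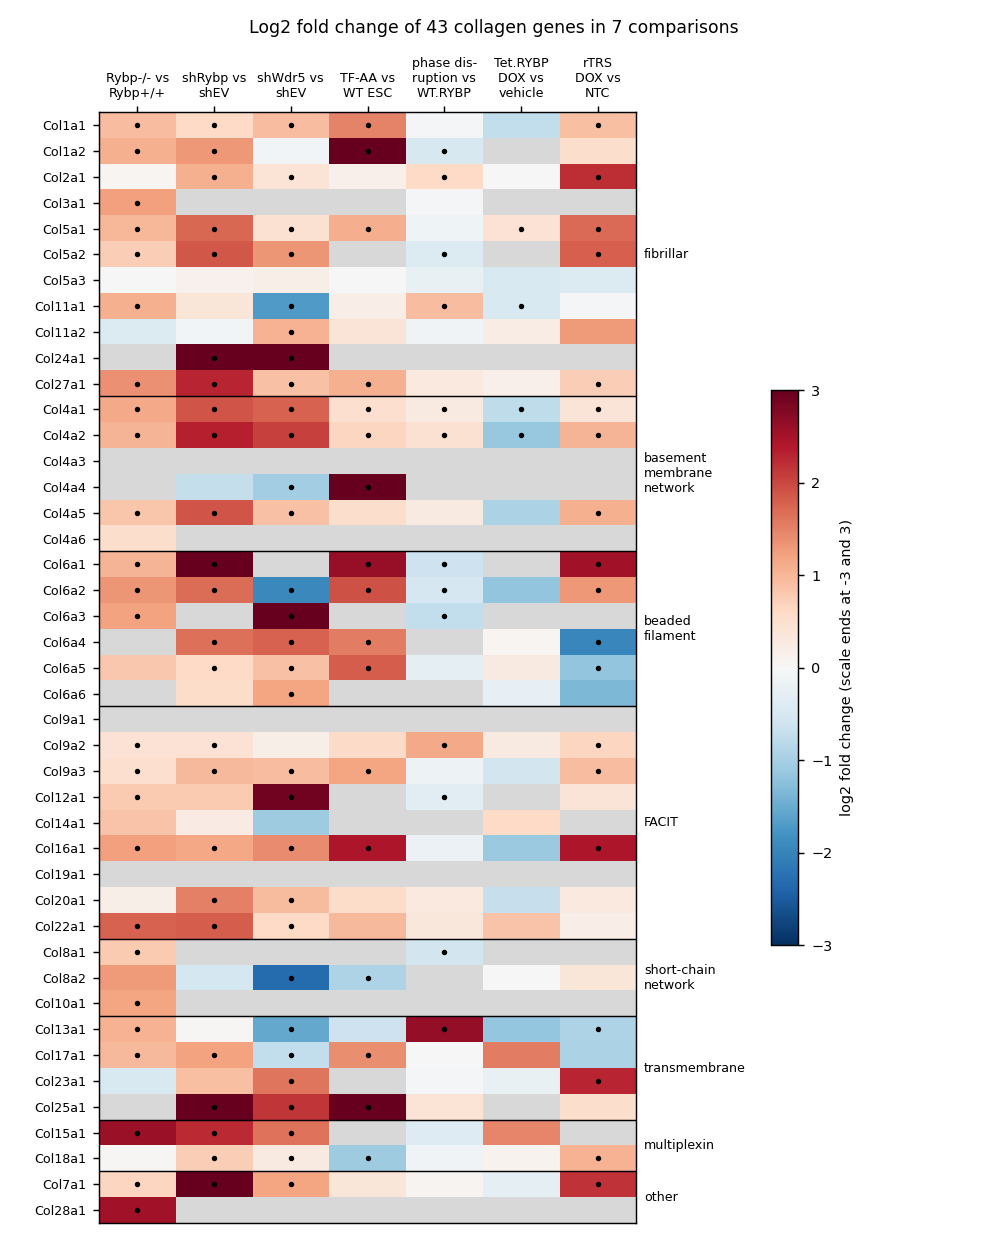
Log2 fold change (colour, limited to -3 and 3) of each of the 43 collagen genes (rows, by class) in each of the 7 comparisons (columns). Dots mark adjusted p under 0.05 in edgeR's quasi-likelihood test and grey marks genes below the filter on low counts. Red dominates the knockout, both knockdowns, TF-AA and rTRS columns, whereas the phase disruption and Tet.RYBP columns hold 6 and 1 genes called higher.

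Loss of RYBP came with higher collagen mRNA, and no collagen gene was called lower. In Rybp-/- cells 25 of the 35 collagen genes that passed the filter on low counts were higher (edgeR, adjusted p under 0.05), where 22.8% of all 16955 genes tested were called higher and 22.7% lower, and the median collagen log2 fold change was 0.96 against 0.0016 over all genes. In shRybp cells 24 of 34 were higher, where 26.8% of all genes were called higher and 26% lower, with a median of 1.18 against 0.018. The 0 genes lower stood at 0 and 1 at an unadjusted p under 0.05 in knockout and knockdown, and at 0 and 0 with DESeq2. A gene that passes the filter only through the group where it is high must differ between the groups, so these counts describe the genes that passed and not all 43. That held for Col28a1 in the knockout and for Col24a1, Col25a1 and Col6a1 in the knockdown, whose control libraries both lay below the filter. Changes above 2-fold were made by 15 collagen genes in Rybp-/- and by 19 in shRybp, where 6.6% and 11.4% of all genes tested were higher by that much. In total, collagen mRNA went from 454 and 471 CPM in Rybp+/+ to 635 and 653 CPM in Rybp-/-, and from 850 and 864 CPM in shEV to 1640 and 1750 CPM in shRybp. In these bulk libraries, fewer cells of one type cannot be told apart from less RNA per cell.

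With depletion of WDR5 the share of collagen genes called higher lay above that of all genes, and the share called lower lay below it. In shWdr5 cells 24 of 34 tested genes were higher and 6 lower (70.6% and 17.6%), where 31.5% of all genes tested were called higher and 31.5% lower. The median collagen log2 fold change was 0.90. The shWdr5 and shRybp comparisons use the same shEV samples, so their values are given side by side below and their agreement is not counted. The 6 lower genes were Col8a2, Col6a2, Col11a1, Col13a1, Col4a4 and Col17a1, the last 2 not called with DESeq2. Col24a1, Col25a1 and Col6a3, among the higher genes, passed the filter through shWdr5 alone and Col6a2, among the lower, through shEV alone.

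In the TF-AA mutation line 15 of 27 tested collagen genes were higher and 2 lower, where 14.4% of all genes tested were called higher and 16.1% lower. Because one of the lower genes was the abundant Col18a1, the summed collagen level was 651 and 583 CPM in WT ESC and 391.9 and 378.7 CPM in the mutant, whereas without Col18a1 the sum was 83.9 and 76.1 CPM against 131 and 131 CPM. Without TF-AA mutation replicate 1 the count of higher genes was 9. Of the 15 higher genes, 6 (Col16a1, Col1a2, Col25a1, Col4a4, Col6a1 and Col6a5) passed the filter through the mutant alone.

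In RYBP phase disruption 6 collagen genes were higher and 7 lower of 31 tested (19.4% and 22.6%). These shares lay near those of all genes tested, of which 16.1% were called higher and 17% lower, and the median collagen log2 fold change was -0.06. The higher genes were Col13a1, Col9a2, Col11a1, Col2a1, Col4a2 and Col4a1, and the lower genes were Col6a3, Col6a1, Col8a1, Col6a2, Col1a2, Col5a2 and Col12a1. Some of these calls were lost under other settings. Col11a1 was lost without WT.RYBP replicate 2 (0.55, adjusted p = 0.173) or RYBP phase disruption replicate 2 (0.85, adjusted p = 0.0792), without the filter (adjusted p = 0.0703) and with DESeq2 (adjusted p = 0.0576). Col2a1 was lost without RYBP phase disruption replicate 1 (0.42, adjusted p = 0.145), without the filter (adjusted p = 0.0521) and with DESeq2 (adjusted p = 0.0775). Col12a1 was lost without RYBP phase disruption replicate 2 (-0.26, adjusted p = 0.0805) and with DESeq2 (adjusted p = 0.0698), and Col8a1 without WT.RYBP replicate 1 (-0.46, adjusted p = 0.0690). Induction of RYBP in J1 cells changed few genes of any kind: 1 collagen gene of 27 tested was higher and 3 lower, where 3.63% of all genes tested were called higher and 2.39% lower. With DESeq2 the count of higher collagen genes was 0, and the calls over all genes shifted between fits, as given in the closing section. The libraries labelled rTRS DOX had 16 of 30 tested collagen genes higher and 3 lower, where 23% of all genes were called higher and 20.4% lower, and their summed collagen level was 832 and 780 CPM against 418 and 393 CPM in NTC. Without rTRS DOX replicate 2, the library from the differently named column, 16 collagen genes were higher and 5 lower.

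Over the 7 comparisons, 21 collagen genes were tested in every one and 3 (Col4a3, Col9a1 and Col19a1) in none, their counts being too low. Of the 40 tested in at least 1 comparison, 14 were called higher in at least 4, which 6.95% of all 18331 genes tested in at least 1 comparison were. The 14 include calls that passed the filter through the high group alone, those of Col6a1 in shRybp and TF-AA mutation and of Col16a1 in TF-AA mutation. Col6a1 reached 4 only with such calls, so the count describes the genes that passed. Another pattern, a call of higher in one comparison and of lower in another, was seen in 16 of the 40, against 35.4% of all genes, and so lay near the background. Col8a2, a short-chain collagen, was the only member called lower and never higher, against 21.2% of all genes. Besides the 3 untested genes, Col4a6, Col5a3 and Col14a1 were called in no comparison, against 18.4% of all genes. The shRybp and shWdr5 comparisons share their shEV samples and so do not count as independent here.

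Col4a1 and Col4a2, genes of the basement membrane network, were the only members of the family called in all 7 comparisons. Their products form the common type IV trimer of basement membranes, with 2 alpha1 chains to 1 alpha2 chain, and the genes lie head to head on chromosome 8, transcribed away from each other. In the mm9 annotation used here their outermost transcripts start at positions 11312826 (Col4a1, minus strand) and 11312805 (Col4a2, plus strand), so that the first exons of the pair overlap by 22 bases and one promoter region serves both. The other type IV genes lie in pairs of the same kind, Col4a4 and Col4a3 on chromosome 1 with 71 bases between their starts, and Col4a6 and Col4a5 on chromosome X with 1308. The shared sequence of the first pair and the whole gap of the second are shown because each lies within the promoter of both genes of its pair, on the plus strand and in lower case with GGGCGG, a binding motif of Sp1-type factors, in capitals where it occurs.
Col4a1 and Col4a2 first exon overlap, chr8:11312805-11312826: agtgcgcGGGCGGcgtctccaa
Col4a4 and Col4a3 gap, chr1:82583425-82583495: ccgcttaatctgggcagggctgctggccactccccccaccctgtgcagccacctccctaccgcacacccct
The second sequence holds none of the 4 motifs searched, which are given with the promoters below.

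Col4a1 rose in Rybp-/- from 17.3 and 16.8 to 36.5 and 38.5 CPM, a log2 fold change of 1.14 ± 0.063 (SE, adjusted p = 3.49e-16). Col4a2 rose beside it from 11.4 and 12.7 to 23.5 and 25.1 CPM (1.01 ± 0.077, adjusted p = 8.21e-13). In shRybp the pair moved further, Col4a1 from 37.0 and 39.4 to 138 and 147 CPM (3.73-fold) and Col4a2 from 14.0 and 16.5 to 68.5 and 86.0 CPM (5.06-fold). Against the same shEV samples, shWdr5 held 119.3 and 123.9 CPM of Col4a1 (3.39-fold, from 34.7 and 37.1 CPM in that table) and 56.8 and 62.4 CPM of Col4a2 (4.12-fold, from 13.3 and 15.7 CPM). In each of these comparisons both treated libraries lay above both controls for Col4a1 and for Col4a2, which held for 35.8%, 39.2% and 40.2% of all genes tested.

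Smaller rises were seen in the TF-AA line, the phase disruption line and the libraries labelled rTRS DOX. Col4a1 was 1.43-fold, 1.21-fold and 1.32-fold higher there, and Col4a2 1.55-fold, 1.37-fold and 2.03-fold. In the TF-AA line the Col4a2 call was lost without TF-AA mutation replicate 1 (0.53, adjusted p = 0.0886), and in phase disruption the Col4a1 call was lost without WT.RYBP replicate 1 (0.27, adjusted p = 0.0506) or RYBP phase disruption replicate 2 (0.23, adjusted p = 0.0645). Induction of RYBP was the only comparison in which the pair fell. Col4a1 went from 26.7 and 26.3 CPM with vehicle to 17.9 and 13.2 CPM with DOX (a log2 fold change of -0.77 ± 0.13, adjusted p = 1.05e-04), and Col4a2 from 8.22 and 8.34 to 3.46 and 4.05 CPM (-1.14 ± 0.20, adjusted p = 2.47e-04). Both calls held when any one of the 4 libraries was left out. Both DOX libraries lay below both vehicle libraries for the pair, as for 24.2% of all genes tested, and in the libraries labelled rTRS DOX both lay above NTC, as for 36.2%. Col4a1 and Col4a2 were thus called in all 7 comparisons, higher in 6 and lower in 1, whereas Col5a1 was called higher in 6 and lower in none.

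The balance between the chains was not fixed. Per length, Rybp+/+ held 1.48 and 1.28 Col4a1 transcripts to each Col4a2 transcript and Rybp-/- held 1.51 and 1.49. The ratio was 2.524 and 2.296 in shEV and 2.04 and 1.93 in shWdr5, and in the rTRS line 2.39 was the lower of the NTC ratios and 1.66 the higher of the DOX ratios. With RYBP induction it was 3.15 and 3.06 with vehicle and 5.03 and 3.16 with DOX. These ratios are a description and were not tested.

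Of the other type IV genes, Col4a5, which is transcribed next to Col4a6 on chromosome X, was 1.77-fold higher in Rybp-/-, 3.68-fold in shRybp (0.809 and 0.761 to 2.74 and 3.08 CPM), 1.83-fold in shWdr5 and 2.099-fold in the libraries labelled rTRS DOX (7.96 and 7.86 to 16.7 and 16.5 CPM). The knockout call was lost without Rybp-/- replicate 2 (0.59, adjusted p = 0.0794) and the shWdr5 call without any single library (0.65 to 1.06, adjusted p from 0.0507 to 0.302) and with DESeq2 (0.88, adjusted p = 0.176). Its neighbour Col4a6 stayed at 0.538 CPM or less in every library. Col4a4 behaved differently from the rest of the class. It stood at 0.239 and 0.247 CPM in WT ESC and at 6.11 and 7.21 CPM in TF-AA mutation, that is 10 reads against 258 (a rate ratio of 27.3, exact 95% counting interval 14.6 to 57.7), so that it passed the filter through the mutant alone. Its partner across the 71-base gap, Col4a3, had 0.0497 CPM or less in all 4 of those libraries. In shWdr5 Col4a4 was 0.489-fold of shEV (1.54 and 1.67 against 0.841 and 0.720 CPM), a call lost without shEV replicate 2 (adjusted p = 0.0735) or shWdr5 replicate 2 (adjusted p = 0.0951) and with DESeq2 (adjusted p = 0.101).

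**Figure D2:**
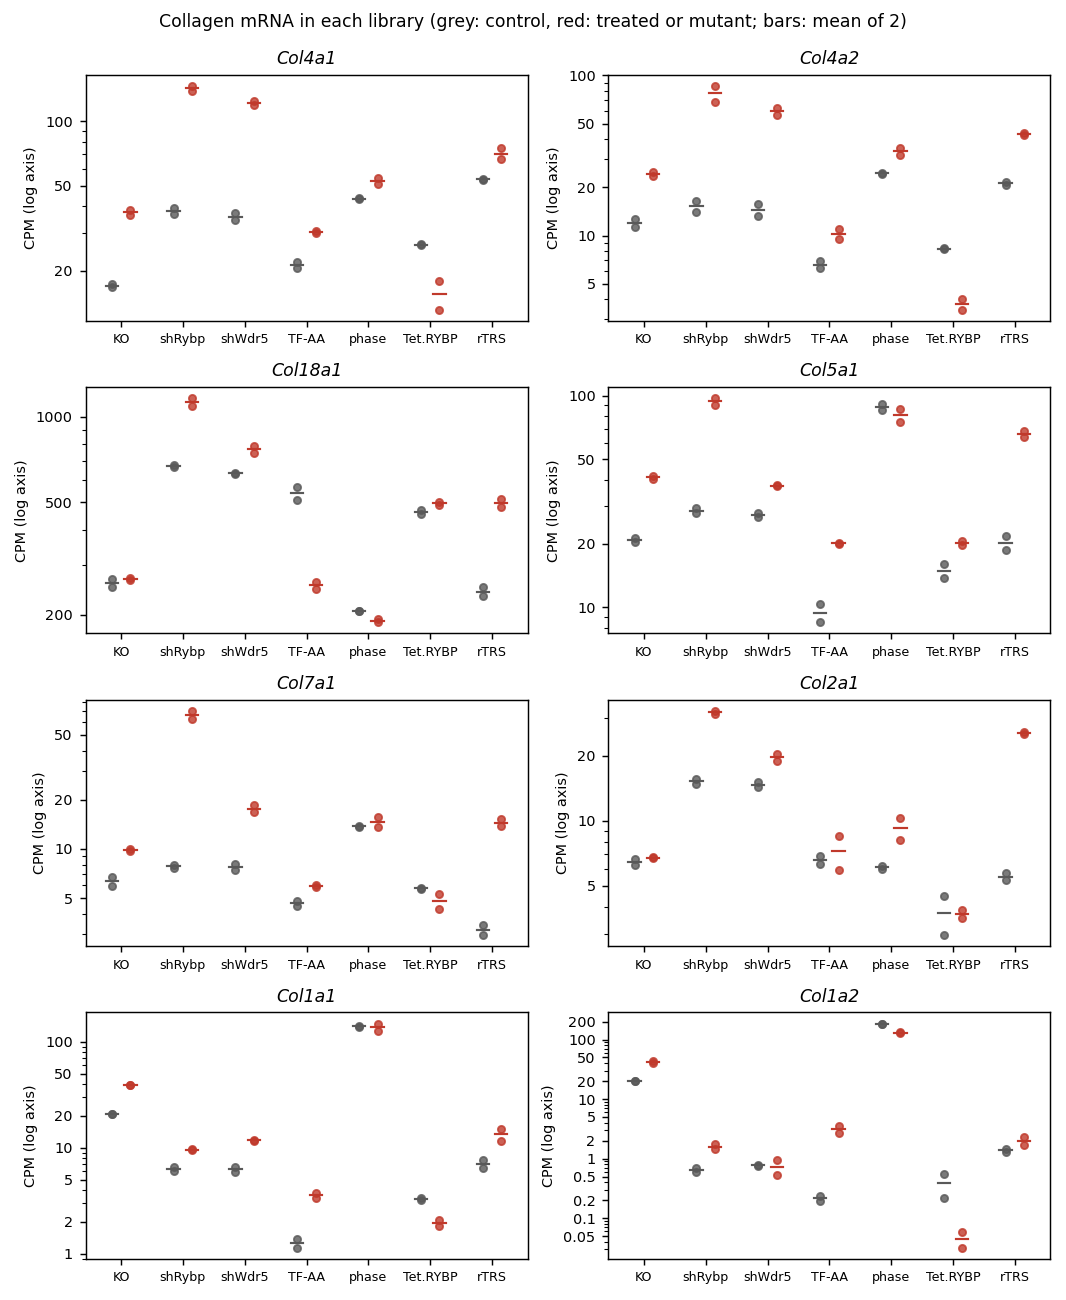
CPM (log axis) of 8 collagen genes in every library of the 7 comparisons, with controls in grey, treated or mutant libraries in red and the mean of 2 as a bar. Col4a1 and Col4a2 lie above their controls in every comparison except Tet.RYBP, and Col1a1 and Col1a2 stand near 100 CPM or higher only in the phase disruption table.

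The 11 fibrillar genes summed to 31.4 and 28.2 CPM in WT ESC, 104 and 103 CPM in Rybp+/+ and 540 and 518 CPM in WT.RYBP. In Rybp-/- 7 of 10 tested fibrillar genes were higher, where 22.8% of all genes were, among them both chains of type I, the main collagen of bone, skin and tendon. Col1a1 rose from 20.8 and 20.7 to 39.2 and 39.4 CPM (0.92 ± 0.059, adjusted p = 1.31e-14) and Col1a2 from 20.1 and 19.8 to 40.2 and 42.8 CPM (1.06 ± 0.060, adjusted p = 6.86e-16). Col3a1, the type III chain that joins type I in soft tissues, rose from 3.97 and 5.13 to 10.2 and 11.3 CPM. Col5a1 and Col5a2, the type V chains that start fibrils, were 1.98-fold and 1.68-fold higher, and Col27a1 2.57-fold. Col2a1, the cartilage collagen, did not pass the test in the knockout (6.25 and 6.66 against 6.79 and 6.70 CPM, adjusted p = 0.689).

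In the R7.15 libraries, markers of fibroblasts rose beside Col1a1, Col1a2 and Col3a1 in Rybp-/-. In phase disruption the markers fell beside Col1a2, while Col1a1 and Col3a1 were not called. The summed level of 10 fibroblast markers was 89.4 and 91.4 CPM in Rybp+/+ and 190 and 187 CPM in Rybp-/-, with 8 of 9 tested called higher (22.8% of all genes) and none of the 10 at 0. In the phase disruption table the same sum was 383 and 389 CPM in WT.RYBP and 294 and 309 CPM in RYBP phase disruption, with 4 of 9 tested lower (17% of all genes). Col1a1 stood there at 142 and 138 CPM in WT.RYBP, and Col3a1 at 39.4 and 36.5 CPM, against 20.8 and 20.7 CPM and 3.97 and 5.13 CPM in Rybp+/+ of the same cell line label. In the shRybp, shWdr5 and TF-AA tables Dcn, Lum and Fap, 3 of the 10, were at 0 in all libraries. Of the others, 3 of 5 tested were higher in shRybp (26.8% of all genes), where the sum was 35.0 and 33.7 CPM against 21.0 and 21.6 CPM, most of it Thy1. In TF-AA mutation 3 of 4 were higher (14.4% of all genes). In shWdr5 1 was higher and 2 lower of 4 (31.5% of all genes each way), and the sum was 12.15 and 12.58 CPM against 20.25 and 20.9 CPM. Whether the labels' single cell type describes all the cells of the R7.15 libraries, and what part fibroblast RNA had in the type I, III, V and VI differences there, was not tested.

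**Figure D3:**
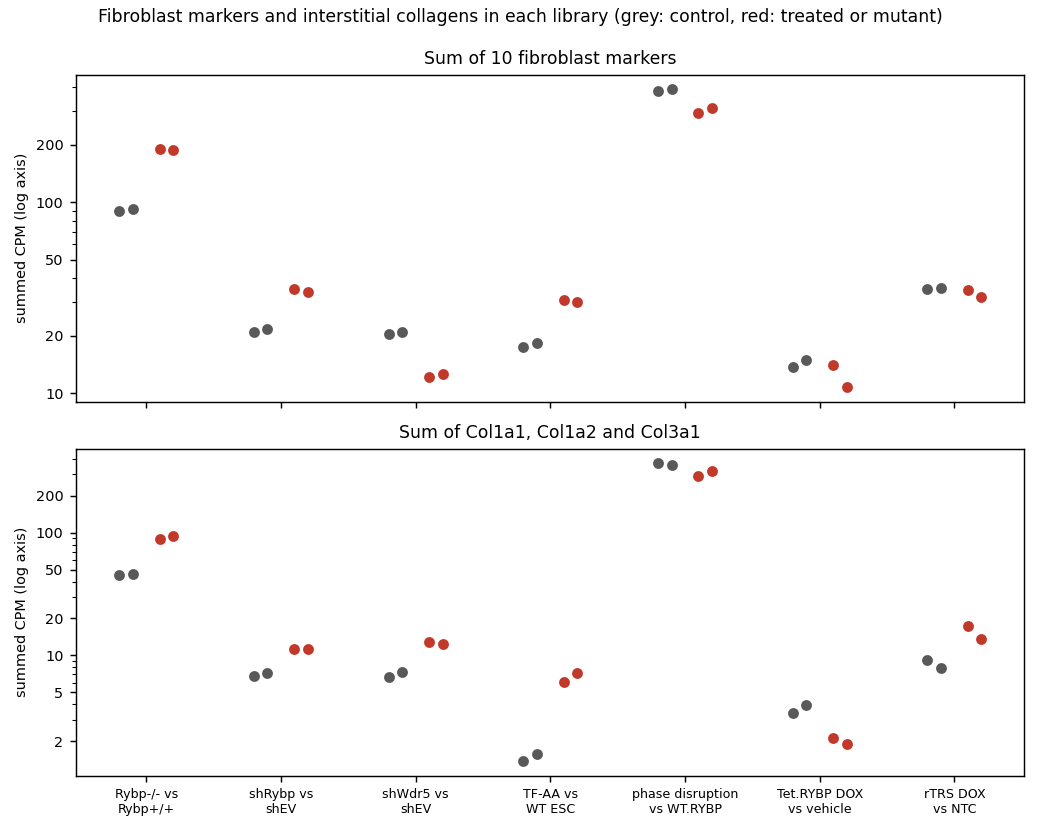
Summed CPM (log axes) of 10 fibroblast marker genes (top) and of Col1a1, Col1a2 and Col3a1 (bottom) in each library, with controls in grey and treated or mutant libraries in red. Both sums are highest in the phase disruption table, and both are higher in Rybp-/- than in Rybp+/+, where the marker sums are 190 and 187 against 89.4 and 91.4 CPM.

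In R1 shEV cells type I was low (Col1a1 at 6.09 and 6.58 CPM, Col1a2 at 0.683 and 0.598 CPM). The fibrillar genes higher in shRybp included Col5a1 (27.8 and 29.6 to 90.95 and 97.23 CPM, 1.71 ± 0.065, adjusted p = 2.14e-13), Col27a1 (3.41 and 2.91 to 15.6 and 15.3 CPM, 4.87-fold), Col5a2 (0.809 and 0.870 to 2.92 and 3.21 CPM, 3.64-fold) and Col2a1 (14.8 and 15.7 to 32.2 and 31.3 CPM, 2.08-fold). Col1a1 was 1.52-fold and Col1a2 2.48-fold higher, the latter not past the threshold without shRybp replicate 1 (1.15, adjusted p = 0.108). In shWdr5 the values for Col5a1, Col27a1, Col2a1 and Col1a1 were 1.38-fold, 1.84-fold, 1.34-fold and 1.89-fold. Col11a1, which joins cartilage fibrils with type II, fell in shWdr5 from 4.44 and 3.59 to 1.40 and 1.06 CPM, while Col11a2, its partner chain, rose from 2.85 and 2.94 to 5.70 and 6.14 CPM. Col24a1 rested on very few reads, 1 in shEV against 27 in shRybp (a rate ratio of 20.6 with an exact 95% counting interval from 3.40 to 843).

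Type I collagen was also higher in the TF-AA line. Col1a2, which passed the filter through the mutant alone, stood at 0.239 and 0.198 CPM in WT ESC and 2.73 and 3.52 CPM in the mutant, or 9 reads against 121 (a rate ratio of 14.2, exact 95% counting interval 7.26 to 31.9). Col1a1 rose from 1.15 and 1.38 to 3.38 and 3.74 CPM (2.80-fold, adjusted p = 5.18e-04). Col5a1 rose from 10.4 and 8.50 to 20.1 and 20.0 CPM, and Col27a1 was 2.09-fold higher, a call lost without TF-AA mutation replicate 1 (0.91, adjusted p = 0.102). Fibroblast markers summed to 17.4 and 18.3 CPM in WT ESC and 30.7 and 30.0 CPM in the mutant. In phase disruption Col1a2 fell from 185 and 181 to 127 and 135 CPM and Col5a2 from 55.1 and 52.0 to 43.7 and 36.8 CPM, whereas Col1a1 (142 and 138 against 125 and 148 CPM) and Col3a1 (39.4 and 36.5 against 37.2 and 36.1 CPM) overlapped between the groups.

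Col2a1 rose more than any other abundant fibrillar gene in the libraries labelled rTRS DOX, from 5.69 and 5.31 to 25.8 and 25.1 CPM (2.21 ± 0.12, adjusted p = 1.44e-08). Col5a1 went there from 21.6 and 18.7 to 67.9 and 63.6 CPM (3.26-fold), Col5a2 from 1.39 and 0.633 to 2.79 and 4.26 CPM and Col1a1 from 7.67 and 6.51 to 15.0 and 11.7 CPM. The sum of the fibroblast markers was 35.2 and 35.6 CPM in NTC and 34.5 and 31.9 CPM with DOX. Of these markers 4 were tested there, 1 higher and 2 lower (23% and 20.4% of all genes), and Lum and Fap were at 0 in all libraries. Their part in the collagen differences was not tested. With RYBP induction in J1 cells, Col5a1 rose 1.35-fold (16.1 and 13.7 to 19.7 and 20.6 CPM, adjusted p = 0.0336) and Col11a1 fell to 0.724-fold (16.6 and 14.2 to 10.4 and 11.8 CPM, adjusted p = 0.0472). Neither of these 2 calls held with DESeq2 (adjusted p = 0.0672 and 0.105) or in 3 of the 4 fits that left out one library, where Col5a1 gave 0.33 to 0.47 and Col11a1 -0.56 to -0.35. Col5a3 was tested in all 7 comparisons and called in none, with values between 2.98 and 10.7 CPM.

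Type VI collagen has alpha1, alpha2 and alpha3 as its classical chains. In Rybp-/- the 3 classical genes rose together, Col6a1 from 4.41 and 3.86 to 8.70 and 8.06 CPM, Col6a2 from 3.37 and 3.91 to 9.66 and 8.55 CPM and Col6a3 from 6.55 and 6.64 to 15.9 and 14.8 CPM. The same 3 genes fell together in phase disruption, Col6a1 from 57.7 and 54.0 to 35.4 and 37.7 CPM, Col6a2 from 36.7 and 39.0 to 27.2 and 26.3 CPM and Col6a3 from 81.2 and 73.6 to 42.6 and 49.8 CPM. The fibroblast marker sums given above shifted the same way in both, and their part in these differences was not tested.

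In R1 cells Col6a3 was almost silent (0.0758 and 0.0272 CPM in shEV), and the type VI mRNA came from the later-described chains. Col6a4 rose from 6.80 and 7.69 to 21.7 and 23.9 CPM in shRybp (1.65 ± 0.11, adjusted p = 4.10e-10) and stood at 21.5 and 26.3 CPM in shWdr5, and Col6a5 was 1.503-fold and 1.84-fold higher. Col6a1, which passed the filter through shRybp alone, had 5 reads in shEV and 143 in shRybp (a rate ratio of 21.8, exact 95% counting interval 9.13 to 68.2). Col6a2 went opposite ways, from 1.14 and 1.71 to 4.73 and 4.37 CPM in shRybp and from 1.22 and 1.72 to 0.374 and 0.384 CPM in shWdr5. In the libraries labelled rTRS DOX the chains moved in both directions, with Col6a1 (0.235 and 0.409 to 2.04 and 1.69 CPM) and Col6a2 (2.29 and 1.90 to 5.80 and 4.59 CPM) higher and Col6a4 (2.64 and 2.87 to 0.732 and 0.687 CPM) and Col6a5 (1.78 and 1.75 to 0.520 and 1.02 CPM) lower. The Col6a5 call was lost there without NTC replicate 1 (-1.18, adjusted p = 0.0525) or DOX replicate 1 (-0.79, adjusted p = 0.156). In the TF-AA line all 4 tested type VI genes were called higher, where 14.4% of all genes were. Col6a2 went there from 0.669 and 0.494 to 1.94 and 2.51 CPM and Col6a4 from 1.10 and 0.988 to 2.78 and 3.26 CPM, while Col6a1 and Col6a5 passed the filter through the mutant alone. The Col6a1 call was lost there without WT ESC replicate 1 (adjusted p = 0.168) or TF-AA mutation replicate 1 (adjusted p = 0.103) and with DESeq2 (adjusted p = 0.0750).

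Among the FACIT genes, Col16a1 was higher in 5 comparisons and in none lower. It went from 1.55 and 2.56 to 5.02 and 4.70 CPM in Rybp-/-, from 2.38 and 3.15 to 6.05 and 6.33 CPM in shRybp, from 2.48 and 2.99 to 6.92 and 7.63 CPM in shWdr5, from 0.143 and 0.296 to 1.14 and 1.28 CPM in TF-AA mutation and from 0.626 and 0.689 to 3.27 and 3.77 CPM in the libraries labelled rTRS DOX. Col22a1, found at tissue junctions such as muscle and tendon, was 3.43-fold higher in Rybp-/- and 3.53-fold in shRybp (3.62 and 3.45 to 13.6 and 11.3 CPM). Col9a3, a type IX chain of cartilage, was higher in 5 comparisons by 1.43-fold to 2.27-fold. The knockout call for Col9a3 was lost without Rybp+/+ replicate 1 (adjusted p = 0.122) and the TF-AA call with DESeq2 (adjusted p = 0.0686) and without WT ESC replicate 1 (adjusted p = 0.0915) or TF-AA mutation replicate 1 (adjusted p = 0.117). Its partner Col9a2 gave the largest FACIT rise of phase disruption, from 7.55 and 6.61 to 16.4 and 14.9 CPM. Col12a1 was 14.5 and 14.8 CPM in Rybp+/+ and 24.1 and 26.4 CPM in Rybp-/-, and 0.713 CPM or less in all libraries of the shRybp table.

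The remaining low members were called in few comparisons. Col20a1 was higher in shRybp (2.83-fold) and shWdr5 (1.92-fold), and Col6a6 in shWdr5 (2.28-fold). Col23a1 was higher in shWdr5 (3.05-fold) and in the libraries labelled rTRS DOX (4.86-fold), the latter call lost without rTRS DOX replicate 1 (1.90, adjusted p = 0.0644). Col28a1 was tested only in the knockout and had there 5 reads in Rybp+/+ and 29 in Rybp-/- (a rate ratio of 6.03, exact 95% counting interval 2.31 to 19.9).

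Col7a1, which anchors the basement membrane of skin to the dermis, gave the largest rise of any collagen gene above 5 CPM in shEV. It went from 7.99 and 7.69 to 62.7 and 70.0 CPM in shRybp, an 8.45-fold difference (3.08 ± 0.086, adjusted p = 5.30e-15). It was 2.28-fold higher in shWdr5 (16.8 and 18.5 CPM), 1.55-fold in Rybp-/- (5.94 and 6.70 to 9.95 and 9.69 CPM) and 4.53-fold in the libraries labelled rTRS DOX (2.97 and 3.42 to 15.2 and 13.8 CPM). In phase disruption, RYBP induction and the TF-AA line it did not pass the test.

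Col18a1 differed in sign between comparisons. It rose from 666 and 674 to 1090.4 and 1159 CPM in shRybp (1.68-fold) and from 250.2 and 233 to 512 and 482 CPM in the libraries labelled rTRS DOX (2.06-fold), and by 1.21-fold in shWdr5. It fell from 567 and 506 to 261 and 247 CPM in the TF-AA line (-1.08 ± 0.079, adjusted p = 2.48e-10). In Rybp-/- it was not called (251 and 269 against 265 and 271 CPM, adjusted p = 0.306), and it passed the threshold only without Rybp+/+ replicate 2 (0.09, adjusted p = 0.0133). The other multiplexin, Col15a1, was higher in Rybp-/- (0.0127 and 0.149 to 0.499 and 0.494 CPM), shRybp (4.68-fold) and shWdr5 (3.09-fold).

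No transmembrane gene exceeded 7.94 CPM in any library (Col17a1 in shRybp). Col13a1 gave the largest rise of phase disruption, from 0.629 and 1.31 to 5.23 and 6.99 CPM (2.64 ± 0.32, adjusted p = 3.63e-08), and fell in shWdr5 from 5.05 and 6.83 to 2.29 and 1.78 CPM. It was also lower in the libraries labelled rTRS DOX (3.64 and 2.62 to 1.75 and 1.55 CPM), a call lost without NTC replicate 1 (-0.67, adjusted p = 0.138). Col25a1, the collagen found in amyloid plaques, had 12 reads in shEV and 155 in shRybp (a rate ratio of 9.85, exact 95% counting interval 5.48 to 19.5). In the TF-AA line Col25a1 had 2 reads in WT ESC and 46 in the mutant (a rate ratio of 24.4, exact 95% counting interval 6.37 to 207). Col17a1, a hemidesmosome collagen of epithelia, was higher in Rybp-/- (1.95-fold), shRybp (2.302-fold) and TF-AA mutation (2.65-fold) and lower in shWdr5 (0.602-fold). The TF-AA call for Col17a1 was lost without TF-AA mutation replicate 1 (adjusted p = 0.0605) and the shWdr5 call without shWdr5 replicate 1 (adjusted p = 0.0606) and with DESeq2 (adjusted p = 0.103).

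Of the short-chain genes, Col10a1 was the fourth of the 43 in level per length in Rybp-/- (5.36 RPKM). Col8a2 fell in shWdr5 from 2.62 and 2.78 to 0.561 and 0.528 CPM. In the TF-AA line it was 3.06 and 2.82 CPM in WT ESC and 1.89 and 1.17 CPM in the mutant, a call lost with DESeq2 (adjusted p = 0.118) and without WT ESC replicate 1 (-0.87, adjusted p = 0.0590) or TF-AA mutation replicate 2 (-0.64, adjusted p = 0.283). Col8a1, its partner chain, rose in Rybp-/- from 3.89 and 3.75 to 7.00 and 6.08 CPM and fell in phase disruption from 13.1 and 11.5 to 8.42 and 8.34 CPM, and was close to 0 in the other tables. The phase disruption call for Col8a1 rested on 1 library, as given above. Col10a1, the collagen of hypertrophic cartilage, stood at 7.48 and 7.29 CPM in Rybp+/+ and at 16.5 and 17.1 CPM in Rybp-/-, and at 0.232 CPM or less in every other library, those of the phase disruption table and the same cell line label included. Exons of Col10a1 overlap those of Nt5dc1 on the opposite strand by 18 bases, Col9a3 exons overlap Tcfl5 by 234 bases and Col5a1 exons overlap antisense lincRNAs by 99 and 113. Whether the counting used strand is not stated, so reads there cannot be told apart.

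Proteins that make, cut and bind collagen were read from lists of their own. Of 20 genes listed for modifying enzymes and chaperones 19 were found in the tables. In Rybp-/- 11 of 19 tested were higher and 1 lower, where 22.8% of all genes were higher and 22.7% lower. In shRybp 9 of 18 were higher and 4 lower (26.8% and 26% of all genes), and in shWdr5 11 and 2 of 16 (31.5% and 31.5%). In TF-AA mutation 2 of 16 were higher and 6 lower (14.4% and 16.1% of all genes). In phase disruption 4 and 1 of 19 (16.1% and 17% of all genes) and in the libraries labelled rTRS DOX 7 and 5 of 18 (23% and 20.4%) were called, with the higher share in the first and the lower share in the second near those of all genes. Serpinh1 encodes HSP47, the chaperone dedicated to collagen, and rose from 35.8 and 36.5 to 104 and 102 CPM in Rybp-/- (1.51 ± 0.045, adjusted p = 2.54e-23). It rose from 38.9 and 39.2 to 106 and 113 CPM in shRybp, from 36.7 and 37.1 to 162 and 164 CPM in shWdr5 and from 49.1 and 45.3 to 158 and 149 CPM in the libraries labelled rTRS DOX. Serpinh1 was also called higher in TF-AA mutation (0.59) and phase disruption (0.54), and missed the threshold with RYBP induction (0.36, adjusted p = 0.140). P4ha2, a prolyl 4-hydroxylase subunit needed for a stable triple helix, was 2.28 higher on the log2 scale in shRybp, 1.31 in TF-AA mutation and 1.18 in phase disruption. Plod1, a lysyl hydroxylase, was lower in shWdr5 (-1.08) while Plod2 was higher (1.32).

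Of the 13 processing and turnover genes the most abundant in every table was Pcolce, an enhancer of procollagen C-proteinase, which stood at 87.0 and 90.3 CPM in Rybp+/+ and at 99.61 and 99.97 CPM in Rybp-/-. Pcolce was also higher in shRybp (0.26) and shWdr5 (0.28) and lower in TF-AA mutation (-0.95), phase disruption (-0.64) and the libraries labelled rTRS DOX (-0.79). Bmp1, the protease that removes the C-propeptide of fibrillar procollagens, rose from 5.79 and 5.78 to 12.4 and 10.8 CPM in Rybp-/-, from 5.64 and 5.57 to 23.0 and 23.9 CPM in shRybp and from 9.27 and 8.26 to 33.7 and 34.7 CPM in the libraries labelled rTRS DOX. In the same DOX libraries Mmp9, a gelatinase that cuts type IV collagen, rose from 2.47 and 2.59 to 56.9 and 50.7 CPM. Over the list, 9 of 12 tested genes were higher in Rybp-/- (22.8% of all genes) and 7 of 10 in shRybp (26.8%). In shWdr5 4 were higher and 4 lower of 10, near the 31.5% of all genes called in each direction.

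Of the 9 collagen receptor genes, 4 of 6 tested were higher in Rybp-/- (22.8% of all genes) and 3 of 6 in shRybp (26.8%), and none lower. In the libraries labelled rTRS DOX 3 were higher and 1 lower of 6 (23% and 20.4%), and in shWdr5 2 and 1 of 6 (31.5% each way). In TF-AA mutation it was 1 and 1 of 5 (14.4% and 16.1%), in phase disruption 0 and 2 of 6 (16.1% and 17%) and with RYBP induction 0 and 0 of 6. Within the list the discoidin domain receptors differed from each other. Ddr1, the epithelial receptor, went from 67.5 and 70.9 to 189 and 185 CPM in shRybp and from 38.3 and 38.5 to 105 and 107 CPM in the libraries labelled rTRS DOX, and did not pass the test in Rybp-/- (60.1 and 63.5 against 63.8 and 61.8 CPM). Ddr2, the mesenchymal receptor of fibrillar collagen, rose from 3.84 and 3.79 to 10.1 and 9.11 CPM in Rybp-/- and from 9.63 and 9.03 to 23.6 and 24.2 CPM in shRybp, and fell from 5.67 and 5.68 to 0.520 and 0.393 CPM in the libraries labelled rTRS DOX. Of the 10 other basement membrane genes, 7 were higher and 1 lower in shRybp (26.8% and 26% of all genes) and 7 and 3 in the libraries labelled rTRS DOX (23% and 20.4%). In shWdr5 4 were higher and 5 lower (31.5% and 31.5%), and in Rybp-/- 6 and 2 (22.8% and 22.7%). In TF-AA mutation the counts were 3 and 3 (14.4% and 16.1%), in phase disruption 2 and 4 (16.1% and 17%) and with RYBP induction 3 and 1 (3.63% and 2.39%). Sparc, which binds type IV collagen and is abundant in parietal endoderm, rose from 154 and 141 to 413 and 430 CPM in shRybp and from 126 and 122 to 202 and 199 CPM in Rybp-/-.

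Primitive endoderm is a strong source of type IV collagen, and its 9 markers were read beside the pair. Their summed level was 21.5 and 28.5 CPM in shEV and 36.1 and 38.3 CPM in shRybp, 21.1 and 27.4 against 40.1 and 39.6 CPM in the shWdr5 table, 10.9 and 12.0 against 22.7 and 21.2 CPM in the knockout, and 8.89 and 9.39 CPM with vehicle against 5.664 and 6.399 CPM with RYBP induction. In the libraries labelled rTRS DOX the sum was 23.9 and 23.3 CPM against 11.1 and 9.59 CPM. In that comparison the sum was carried by Dab2 (5.64 and 3.91 to 18.8 and 17.9 CPM), while 1 of 8 tested markers was higher and 1 lower with a median log2 fold change of -0.26. With RYBP induction no marker passed the test, the lowest adjusted p of the 7 tested being 0.0587 (Gata4). Called higher were 4 of 9 in Rybp-/- and, with 1 lower, 5 of 9 in shRybp, and in shWdr5 4 were higher and 2 lower of 9, where 22.8%, 26.8% and 31.5% of all genes were higher. In TF-AA mutation the sum was 23.6 and 24.0 CPM against 13.3 and 12.4 CPM, with 3 of 6 tested higher (14.4% of all genes), and in phase disruption 30.0 and 29.0 CPM against 25.0 and 23.5 CPM, with 2 of 8 higher (16.1%). The part of these markers in the type IV differences was not tested. Trophectoderm markers were also read. Of 7, 6 were higher in Rybp-/- (22.8% of all genes), and 5 were higher and 1, Eomes, lower in shRybp (26.8% and 26%). In the libraries labelled rTRS DOX 5 of 6 tested were higher (23% of all genes, median log2 fold change 2.18), in phase disruption 4 of 6 (16.1%), with a sum of 237 and 246 CPM against 144 and 140 CPM, in shWdr5 4 of 6 with 1 lower (31.5% each way), in TF-AA mutation 2 of 3 (14.4%) and with RYBP induction 1 of 4 (3.63%). Krt7, a simple epithelial keratin, rose in Rybp-/-, shRybp, shWdr5, TF-AA mutation, phase disruption and the libraries labelled rTRS DOX, to 42.8 and 42.7 CPM from 6.83 and 8.38 CPM in the last.

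At their promoters the collagen genes had larger shares with H3K4me3 and RING1B peaks, and smaller shares with H3K27ac and WDR5 peaks, than all protein-coding genes had. A gene was given a peak where a peak of the deposited list came within 2500 bp of any of its transcription start sites. In Rybp+/+ cells 36 of the 43 genes (83.7%) had an H3K4me3 peak, against 67.9% of all protein-coding genes, but 3 (6.98%) had an H3K27ac peak, against 51.7%. In a window of 1000 bp the H3K27ac count was 1 (2.33%, against 50%). WDR5 peaks were at 9 genes (20.9%, against 46.9%). RING1B, the catalytic subunit of Polycomb repressive complex 1, had a peak at 28 of them in R1 shEV cells (65.1%, against 46% of all genes), and 25 (58.1%, against 13.6%) combined H3K4me3 and RING1B with no H3K27ac peak, the marks coming from different lines (R7.15 and R1). Peaks were called by the authors on merged or single samples, so these shares have no replicate error and were not tested.

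**Figure D4:**
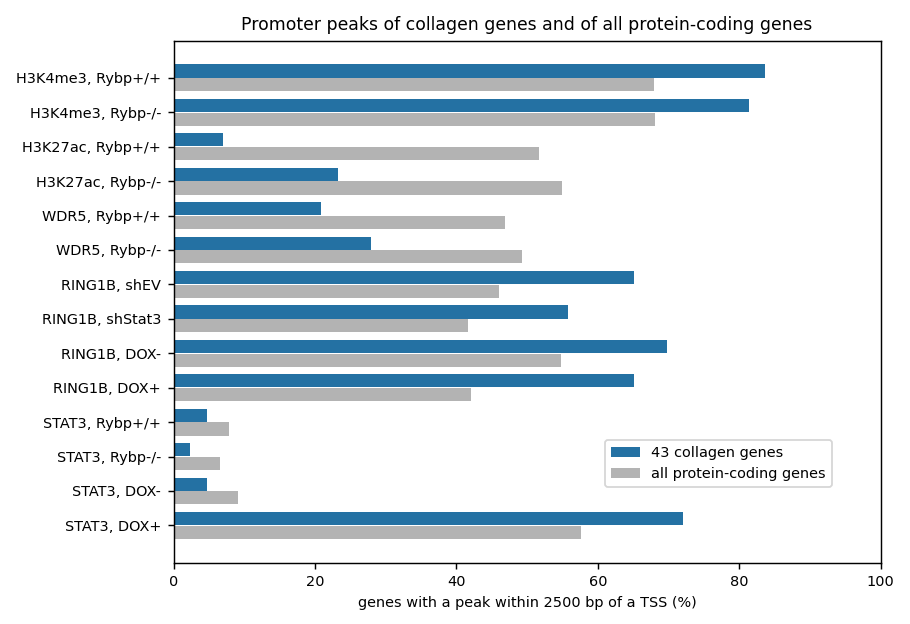
Share of the 43 collagen genes (blue) and of all 22337 protein-coding genes (grey) with a peak within 2500 bp of a transcription start site, for each of the 14 peak lists. Collagen genes exceed all genes for H3K4me3 and RING1B and fall below them for H3K27ac and WDR5, with 3 of 43 marked by H3K27ac in Rybp+/+.

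H3K27ac peaks were listed at more collagen promoters in Rybp-/- than in Rybp+/+, and the Rybp-/- list was itself longer (62669 against 57642 peaks). The 3 genes with a peak in Rybp+/+ were Col18a1 (9.55-fold over input), Col9a2 (6.85-fold) and Col2a1 (5.59-fold), and all kept one in Rybp-/- (11.3-fold, 9.71-fold and 5.91-fold). Of the 40 genes with no peak in Rybp+/+, 7 had one in Rybp-/- (17.5%, against 8.22% of the 10791 protein-coding genes with none in Rybp+/+), namely Col22a1 (4.67-fold), Col5a1 (4.54-fold), Col17a1 (4.06-fold), Col13a1 (3.68-fold), Col7a1 (3.58-fold), Col16a1 (2.64-fold) and Col9a3 (2.22-fold). No collagen gene had a peak in Rybp+/+ alone, but only 3 had one that could be lost, and 1.54% of all genes with a peak in Rybp+/+ lost it. The 7 genes were all among the 25 called higher of the 35 tested in Rybp-/- RNA. Their peaks ranged from the 0.9 percentile of fold enrichment in that list (Col9a3) to the 64.7 percentile (Col22a1). The strongest such peak lay 22551 bp from the 5-prime start at Col17a1 and 2873 bp at Col13a1, and that of Col2a1 in Rybp+/+ lay 11697 bp away. At a −log10 q of at least 5, 3 collagen genes had a peak in Rybp+/+ and 8 in Rybp-/- (49.5% and 51.1% of all genes). Col4a1, Col4a2, Col1a1 and Col6a1, which also rose, had no H3K27ac peak listed in either genotype.

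RING1B was listed in all of shEV, shStat3, DOX- and DOX+ cells at 23 collagen genes (53.5%, against 35.2% of all genes) and in none of them at 13 (30.2%, against 42.8%). The strongest peaks in shEV were those of Col12a1 (49.2-fold over input), Col19a1 (44.8-fold), whose counts were too low to test in any table, and the shared promoter of Col4a1 and Col4a2 (38.2-fold). The type IV peak spanned chr8:11311415-11315065 in mm9 and so covered the 22-base overlap printed above. With shStat3 the type IV peak was 49.4-fold, with DOX- 39.6-fold and with DOX+ 30.3-fold. Col27a1 held 36.7-fold in shEV and Col5a1 11.8-fold, whereas Col18a1, the most abundant collagen mRNA, held 3.55-fold and lay at the 20.2 percentile of its list. Type VI genes other than Col6a2 and Col6a6 had no RING1B peak in any list.

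**Figure D5:**
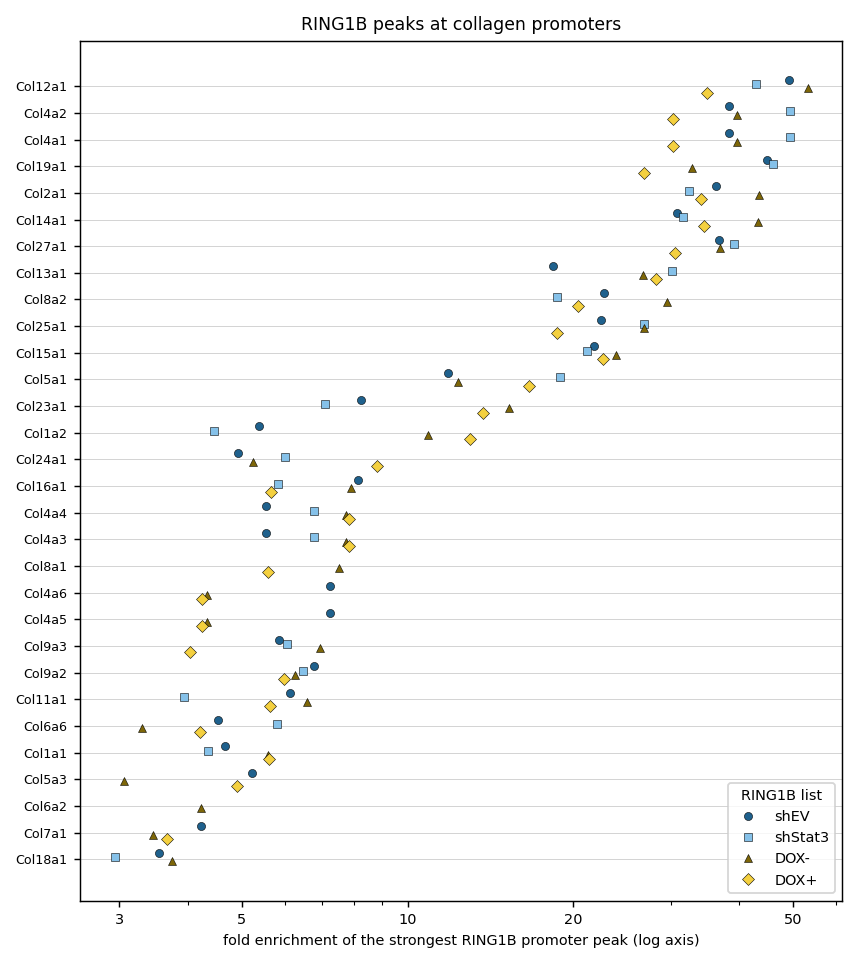
Fold enrichment over input (log axis) of the strongest RING1B peak within 2500 bp of a start site, for each collagen gene with a peak in at least 1 of the 4 lists (marker shape and colour). Head-to-head type IV genes share their peak, and the genes spread from Col18a1 at 2.94-fold in shStat3 to Col12a1 at 53.2-fold in DOX-.

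Differences between the RING1B lists were few. A peak present in shEV was absent from the shStat3 list at Col4a5, Col4a6, Col5a3 and Col7a1 (9.30%, against 7.64% of all genes), and the reverse was found at no collagen gene. A peak in DOX- was absent from DOX+ at Col18a1 and Col6a2 (4.65%, against 13.4%). STAT3 peaks behaved differently, being listed at 2 collagen promoters in DOX- (4.65%, against 9.04% of all genes) and 31 in DOX+ (72.1%, against 57.6% of all genes), while the lists themselves held 2816 and 30663 peaks.

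Genes with a RING1B peak in shEV did not stand out in the knockout or knockdown. In Rybp-/- 15 of 22 tested collagen genes with a peak were higher and 10 of 13 without one, against 26.1% and 23.1% of all protein-coding genes with and without a peak. In shRybp it was 16 of 25 with a peak and 8 of 9 without, although over all protein-coding genes the shares ran the other way, 34.2% with and 19.5% without. In phase disruption the 6 higher genes all had a RING1B peak (of 20 tested with one), and 5 of the 7 lower genes were among the 11 without. Of all genes with a peak 17.1% were higher and 18.2% lower, and of those without 13.2% and 16.6%. In the libraries labelled rTRS DOX 13 of 21 with a peak were higher and 3 of 9 without, against 30.1% and 16.4% of all genes. These counts are a description and were not tested.

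The bases upstream of the collagen genes were read for their composition. Over the 250 bases before the 5-prime start of each gene (mm9), the median GC content was 59.2% against 54.0% for 22333 protein-coding genes, and the median ratio of observed to expected CpG was 0.455 against 0.497. A ratio above 0.6 was reached by 9 of 43 genes (20.9%) against 42%. These values were not tested. Of 4 motifs searched on both strands, GGGCGG was found upstream of 22 collagen genes (51.2%, against 39.6% of all), CCAAT, the motif of NF-Y, of 17 (39.5%, against 35%), TATAAA of 5 (11.6%, against 12.3%) and TTCNNNGAA, the STAT motif, of 4 (9.30%, against 6.83%). No motif contains another. The Col7a1 upstream region is shown because Col7a1 rose most in shRybp of the collagen genes above 5 CPM in shEV, gained an H3K27ac peak in Rybp-/- and lay at a RING1B peak in shEV (4.22-fold, chr9:108855497-108856026) that was not in the shStat3 list. It is written on the plus strand, which is the gene's own, with GGGCGG and the reverse complement of CCAAT in capitals.
Col7a1 upstream region, chr9:108855381-108855630: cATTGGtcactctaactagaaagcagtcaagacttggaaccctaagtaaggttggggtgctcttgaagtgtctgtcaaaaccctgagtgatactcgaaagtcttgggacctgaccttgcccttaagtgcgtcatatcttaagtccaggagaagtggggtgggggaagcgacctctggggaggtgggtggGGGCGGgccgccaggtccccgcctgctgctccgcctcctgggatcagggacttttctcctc
A motif match describes these letters alone and shows no binding.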

How the data were processed

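RNA-seq and ChIP-seq files of mouse ESCs were used as deposited. The authors made the counts per gene with Trim Galore, STAR and HTSeq (as named in the submitters' processing notes), and the deposited counts are not normalised. The tables carry Ensembl identifiers, and symbols, lengths, exons and start sites came from the GENCODE annotation of mm9. HTSeq rows that name no gene were left out, and reads with no feature or an ambiguous one were 7.76% to 12.6% of reads in the 6 tables that list them (the RYBP induction table holds no such rows). The columns of per-sample values not used were 0. Peak files hold the authors' fold enrichment over input (a ratio) and −log10 q. H3K4me3, H3K27ac and WDR5 replicates were merged by the authors and peaks called with MACS2 against input, while the caller for RING1B and STAT3 is not given in the sources used here.

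Each table was fitted alone in edgeR 4.0.16 (R 4.3.3) with filterByExpr, TMM and the quasi-likelihood test, 2 libraries against 2, and p-values were adjusted by Benjamini-Hochberg over all genes tested, a gene being called at an adjusted p under 0.05. RPKM values use the deposited length. The fit was also run on simulated counts, and the outcome is not given here. Alternatives were RLE scaling, no filter, DESeq2 1.42.0, a replicate block and leaving out each library. For peaks they were a window of 1000 bp, a −log10 q of at least 5, an overlap of at least 200 bp instead of 1 bp, and, chosen after seeing the data, the 5-prime start site alone. Counting intervals are exact and cover counting error only. Peak tables and sequences were read with Python 3.11.15.

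Genes were named by rule as up to 8 per direction and comparison, called and with a mean of at least 1 CPM in one group, by size of change, plus in all comparisons types I, III and IV, Col18a1 and genes called in at least 5 comparisons. Col24a1, Col8a2, Col10a1, Col12a1, Col5a3, Col7a1, Col17a1 and others outside the rule in a comparison were named after their values were seen. The members and lists were chosen with earlier results of these data known.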

Additional observations from a re-analysis of the deposited data

Results flagged for a closer look

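The type IV pair differed in opposite directions between libraries labelled DOX and their controls in the J1 and rTRS lines. In J1 Tet on.RYBP cells the log2 fold change with DOX was -0.77 for Col4a1 and -1.14 for Col4a2, with both DOX libraries below both vehicle libraries. In the libraries labelled rTRS it was 0.40 for Col4a1 and 1.02 for Col4a2, with both DOX libraries above both NTC libraries. The difference between the lines was not tested, and line and transgene cannot be told apart. Rybp mRNA differed by 1.91 on the log2 scale in the first comparison and by -0.15 in the second.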

How the results depend on the processing

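Counts of collagen genes called higher in the knockout and both knockdowns stayed within 1.5 times under every alternative run. In the TF-AA line the count of lower genes was 1 with DESeq2 and 1 to 3 when a library was left out (2 in the full fit), that of higher genes 9 to 14, and all calls 2724 to 4767. Phase disruption gave 2980 calls over all genes with DESeq2. For RYBP induction, collagen genes higher numbered 2 without the filter, 0 with DESeq2 and 2 with the replicate block (1 in the full fit), and 0 to 3 when a library was left out, with all calls from 406 to 1566. The libraries labelled rTRS DOX had 5 collagen genes lower without the filter and 2 to 5 when a library was left out. The cause was not tested.

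Among genes named, signs turned only for genes not called, when 1 library was left out. The log2 fold changes then ranged in the knockout from -0.0099 to 0.0918 (Col18a1) and -0.2213 to 2.1349 (Col4a6), in shWdr5 from -0.5516 to 0.2676 (Col1a2), in phase disruption from -0.1683 to 0.0752 (Col1a1) and -0.3599 to 0.0747 (Col9a3), and with RYBP induction from -0.0937 to 0.4706 (Col27a1) and -1.7159 to 0.7662 (Col4a5). Of the remaining gene values, 930 kept their call, 53 lost it and 6 gained it.

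Same-numbered libraries deviated together only weakly (correlations from -1e-04 to 0.201, 2 pairs a table), so the numbers are not taken as pairs. The replicate block changed 1 named gene, Col18a1 in phase disruption (-0.12, adjusted p = 0.0390).

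With total counts as library size the summed collagen level of shEV in the shRybp table was 811 in place of 857 CPM. H3K27ac in Rybp+/+ marked 1 gene in the 1000 bp window. At a −log10 q of at least 5, STAT3 marked 1 gene in DOX-, 0 in Rybp+/+ and 0 in Rybp-/-, and WDR5 5 and 7. At the 5-prime start alone STAT3 in Rybp+/+ marked 1. Depth limits genes under 1 CPM.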

Other observations

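Mesoderm markers were read in the same way. Of 6, 3 were called higher in the libraries labelled rTRS DOX (T, Eomes and Hand1) and none lower, and T differed by 4.34 ± 0.14 on the log2 scale (SE). In phase disruption 1 of the 4 tested was higher, Hand1 (2.68), and 1 lower, T (-1.38 ± 0.15), and the summed level of the list was 34.2 and 35.1 CPM in WT.RYBP and 38.5 and 39.7 CPM in RYBP phase disruption. Over all genes 23% were called higher in the first comparison and 16.1% in the second. These markers were read beside Col2a1, which was called higher in both comparisons, the second call being lost in some fits.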
